A study of Homo sapiens with 5 samples.

Results

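The mRNAs of 9 collagen genes (COL17A1, COL7A1, COL4A1, COL4A2, COL4A5, COL12A1, COL16A1, COL18A1 and COL5A1) were followed through 5 RNA sequencing libraries of MCF10A, an established non-tumorigenic human breast epithelial line. They were chosen by gene name as collagens with proline-rich coding sequences, and are 9 of the 56632 genes in each table. Of the 9, 7 had an FPKM averaging 1 or more across the 5 libraries and so were among the 11764 genes analysed. COL12A1 (mean FPKM 0.98) and COL5A1 (mean FPKM 0.004) did not. FPKM is a level scaled for transcript length and library total, so it can be set side by side between genes.

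RNA immunoprecipitation (RIP) draws a protein from a cell lysate with an antibody, and the RNA that comes with it is sequenced and set against the input, the RNA of like cells before the antibody. CBFB is the partner subunit of the RUNX transcription factors, and hnRNPK is an RNA-binding protein with KH domains that prefers runs of C. One input and one FLAG antibody RIP came from MCF10A expressing FLAG-tagged CBFB, while 1 input and 2 hnRNPK antibody RIP repeats came from parental MCF10A. All were grown without any further treatment, with horse serum, insulin, EGF, hydrocortisone and cholera toxin in the medium. The study's methods describe stable lentiviral lines with FLAG at either end of CBFB in a CBFB-knockout background, and do not say whether these libraries came from one of them or from a single clone. No mock immunoprecipitation was analysed here, so RNA that sticks to beads or antibody cannot be told apart from RNA bound to the protein. The labels do not say whether the hnRNPK repeats came from separate cultures, so their spread may be technical.

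Collagens are secreted proteins of 3 chains wound into a triple helix, which is built on regularly spaced glycines and rich in proline. Type IV collagen forms the network of basement membranes, type VII the anchoring fibrils beneath them, and type XVII is a transmembrane collagen of the hemidesmosome, the junction that holds basal epithelial cells to that membrane. Fibrillar collagens such as types I, III and V are made mainly by fibroblasts. Proline is encoded by codons that begin with CC, so coding sequences rich in proline hold many short runs of C.

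The coding sequences of the members were read from GENCODE 29 transcripts (GRCh38), since they are the feature by which the genes were chosen and runs of C are what hnRNPK is known to prefer. Proline codons made up 23.2% of the coding sequence of COL4A5, 19.5% of COL4A1, 18.2% of COL5A1, 17.6% of COL16A1, 17.5% of COL18A1, 16.7% of COL4A2, 14.5% of COL7A1, 13.6% of COL17A1 and 8.59% of COL12A1. The median of the 10500 analysed genes with a coding transcript was 5.46%, and the highest 5% of them began at 11.5%, so all members but COL12A1 lay in that range. The stretches below are the 60 nt of each coding sequence, within 1 exon, that hold the most proline codons. Those of PCOLCE and TIMP2, collagen pathway genes with high enrichment described further on, are shown for contrast. They are shown because of that enrichment, so the contrast is an illustration and not a test. Capitals mark runs of 3 or more C, and all are written 5′ to 3′ on the coding strand.
COL17A1: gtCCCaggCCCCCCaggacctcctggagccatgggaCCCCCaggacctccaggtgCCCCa
COL7A1: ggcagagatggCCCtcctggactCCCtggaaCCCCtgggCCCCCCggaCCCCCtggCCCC
COL4A1: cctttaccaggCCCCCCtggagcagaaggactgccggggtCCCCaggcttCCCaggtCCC
COL4A2: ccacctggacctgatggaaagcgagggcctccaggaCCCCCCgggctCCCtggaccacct
COL4A5: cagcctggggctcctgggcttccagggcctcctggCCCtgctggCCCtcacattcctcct
COL16A1: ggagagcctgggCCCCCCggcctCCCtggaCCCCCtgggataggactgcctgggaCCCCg
COL18A1: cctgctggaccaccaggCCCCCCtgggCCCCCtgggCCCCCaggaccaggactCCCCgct
COL12A1: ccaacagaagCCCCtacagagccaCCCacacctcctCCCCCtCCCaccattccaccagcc
COL5A1: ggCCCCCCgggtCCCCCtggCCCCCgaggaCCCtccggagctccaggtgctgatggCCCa
PCOLCE: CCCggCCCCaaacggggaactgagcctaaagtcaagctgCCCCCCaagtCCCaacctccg
TIMP2: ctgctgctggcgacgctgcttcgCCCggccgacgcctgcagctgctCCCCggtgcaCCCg
On GRCh38 these lie at chr10:104043502-104043561 in exon 35 of COL17A1 (minus strand), chr3:48575067-48575126 in exon 75 of COL7A1 (minus), chr13:110183188-110183247 in exon 27 of COL4A1 (minus), chr13:110450385-110450444 in exon 20 of COL4A2 (plus), chrX:108591171-108591230 in exon 20 of COL4A5 (plus), chr1:31691417-31691476 in exon 19 of COL16A1 (minus), chr21:45486927-45486986 in exon 15 of COL18A1 (plus), chr6:75123337-75123396 in exon 43 of COL12A1 (minus) and chr9:134812605-134812664 in exon 48 of COL5A1 (plus). The PCOLCE stretch is at chr7:100606540-100606599 in exon 6 (plus) and the TIMP2 stretch at chr17:78924987-78925046 in exon 1 (minus). Except for COL12A1, the collagen stretches hold between 5 and 7 glycine codons among their 20 codons and between 8 and 11 proline codons, and 2 to 6 runs of C. The COL12A1 stretch holds 11 proline codons and 0 glycine codons. The TIMP2 stretch, although the most proline-rich of its gene, holds only 3 proline codons but 3 runs of C.

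The libraries held between 69786576 and 106855647 expected counts, RSEM's estimates of the fragments of each gene. Mitochondrial genes took 4.27% and 11.2% of the inputs, 62.2% of the counts after FLAG-CBFB RIP and 84.5% and 86.6% after hnRNPK RIP, and the FPKM of the average gene was lower in every RIP than in its input. On the log2(FPKM + 1) scale the mean fall over the analysed genes was -1.34 for FLAG-CBFB, -2.61 for hnRNPK repeat 1 and -2.68 for repeat 2. Enrichment is given relative to that mean, as centred log2 enrichment, with 0 for the average gene and 2 (4-fold) as the threshold for enriched. GAPDH, an unbound reference in the study, had a centred enrichment of -0.18 for CBFB and -2.69 ± 0.04 (SD, n = 2) for hnRNPK, and RUNX1, a bound one, 2.13 and 3.09 ± 0.28 (SD, n = 2). All 10 breast epithelial markers listed were among the genes analysed, and their summed level was 4058 FPKM in the FLAG-CBFB cell input and 3674 FPKM in the parental input, with between 541.7 and 1778 FPKM in the RIPs. The 10 fibroblast and mesenchyme markers summed to 16.0 and 18.6 FPKM in the inputs and to between 0.98 and 8.25 FPKM in the RIPs, with COL1A2 and COL3A1 at 0 counts in all 5 libraries. Most of the input sums came from the 2 that were analysed, FAP (9.69 and 8.75 FPKM) and TWIST1 (4.83 and 7.05 FPKM), which these cells did express. The 3 endothelial markers found of 4 listed summed to 0.23 FPKM or less, with CDH5 at 0 counts throughout. Of the 3 blood markers PTPRC and CD3E were at 0.08 FPKM or less and CD14 was at 12.4 and 16.4 FPKM in the inputs.

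COL17A1 was by far the highest collagen mRNA in these cells, with 222 FPKM in the FLAG-CBFB cell input and 156 FPKM in the parental input. It made up 68.5% and 61.9% of the summed FPKM of the 9 genes. In both inputs 7 of the 9 genes had at least 1 FPKM: COL17A1, COL7A1, the type IV genes COL4A1, COL4A2 and COL4A5, COL16A1 and COL18A1. COL12A1 had 3.74 FPKM in the parental input and 0.30 FPKM in the FLAG-CBFB cell input. COL5A1 had 6 counts in the FLAG-CBFB cell input and 0 counts in the other 4 libraries. A count of 0 allows up to 3 counts, or 0.0430 CPM in the parental input, for counting error alone.

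In the parental input the order after COL17A1 was COL4A2 (25.95 FPKM), COL7A1 (24.1 FPKM), COL4A5 (17.8 FPKM), COL4A1 (10.9 FPKM), COL16A1 (10.8 FPKM), COL12A1 (3.74 FPKM) and COL18A1 (2.51 FPKM). In the FLAG-CBFB cell input it was COL4A5 (40.4 FPKM), COL16A1 (19.7 FPKM), COL4A2 (15.7 FPKM), COL7A1 (14.9 FPKM), COL4A1 (7.41 FPKM), COL18A1 (4.01 FPKM) and COL12A1. With 1 input of each kind there is no spread by which to say that neighbours in these orders differ. Between the inputs, 5 of the 7 analysed members differed in FPKM by more than 1.5-fold, against 35.4% of all analysed genes. In FPKM COL4A5 was 2.27-fold, COL16A1 1.82-fold and COL18A1 1.60-fold higher in the FLAG-CBFB cell input, while COL4A2 was 1.66-fold and COL7A1 1.62-fold higher in the parental input. FPKM divides by RSEM's mean transcript length, which for COL7A1 was 1.54-fold longer in the FLAG-CBFB cell input. Without that division COL7A1 hardly differed, at 52.49 CPM there and 54.17 CPM in the parental input. For COL17A1 the length was 1.58-fold longer in the FLAG-CBFB cell input. It had 813.4 against 352.4 CPM, but differed only 1.43-fold in FPKM. COL12A1, which was too low to be analysed, was 12.5-fold higher in the parental input, with 2001 counts against 238 counts. In bulk RNA a difference in the number of cells that make an mRNA and a difference in the amount per cell cannot be told apart, and here cell line and library cannot be told apart either.

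**Figure D1:**
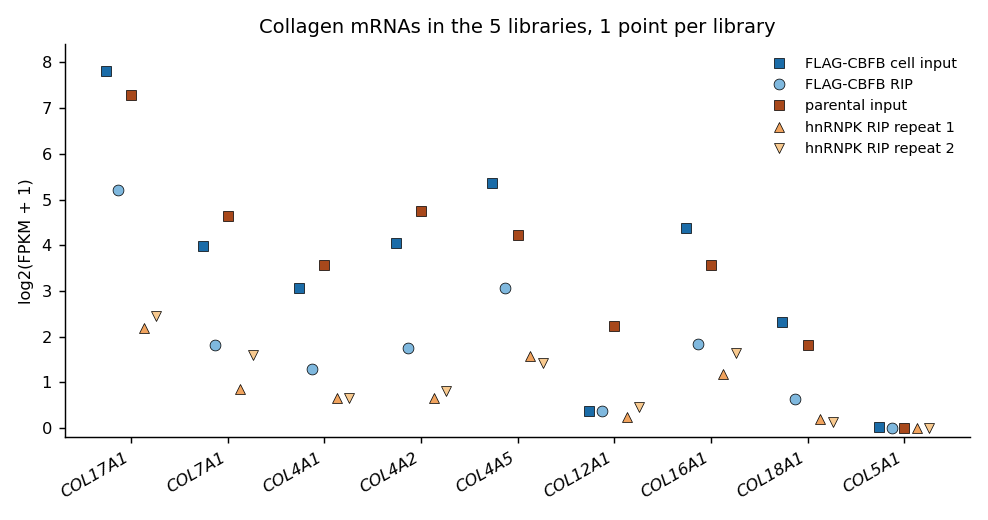
Level of the 9 collagen mRNAs as log2(FPKM + 1) in each of the 5 libraries; squares are inputs, circles the FLAG-CBFB RIP and triangles the 2 hnRNPK RIP repeats. COL17A1 is highest in both inputs (222 and 156 FPKM), the RIP points lie below the inputs for 7 genes, and COL5A1 is at or near 0 everywhere.

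The summed share of the 9 collagen genes was 0.127% of all counts (95% Wilson interval 0.126 to 0.127%) before FLAG-CBFB RIP and 0.0162% (0.0159 to 0.0165%) after it. It was 0.0779% (0.0772 to 0.0785%) in the parental input, 0.00319% (0.00309 to 0.00330%) after the first hnRNPK RIP and 0.00338% (0.00326 to 0.00350%) after the second. Intervals cover counting error only. Leaving out the mitochondrial genes, the 9 genes had 1324 CPM (counts scaled to a common library total) in the FLAG-CBFB cell input and 428 CPM after its RIP. They had 877 CPM in the parental input and 206 and 252 CPM after hnRNPK RIP. These sums were lower in each RIP than in its input, by -1.63 on the log2 scale for FLAG-CBFB and by -2.09 and -1.80 for the hnRNPK repeats.

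To see whether collagen mRNAs came down with CBFB, each was set against the FLAG-CBFB cell input. Of the 7 analysed members 0 passed the 4-fold threshold with CBFB, against 4.37% of the analysed genes. The centred log2 enrichment was below 0 for 7 of 7, against 64.9% of the analysed genes, and their median was -0.96 against -0.19 for all analysed genes. With the parental input in place of their own, COL4A5 and COL18A1 turned to 0.21 and 0.20 and the other 5 stayed below 0. With 1 library per arm no test was possible, and the errors given are 95% intervals from counting alone. For hnRNPK, again 0 of 7 passed the 4-fold threshold, against 8.20% of the analysed genes. The centred log2 enrichment was below 0 in both repeats for 5 of 7, against 50.6% of the analysed genes, and the median over members was -0.27 against -0.11. COL17A1 alone was below -2, against 6.24% of the analysed genes. It was no longer below -2 with a pseudocount of 0.1 (-1.81), with FPKM rescaled without mitochondrial genes (-1.70), over genes averaging 5 FPKM or more (-1.87), or as log2 CPM with TMM (-1.16) or DESeq2 (-0.98) factors.

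The counts of the hnRNPK RIPs were then compared with the parental input by edgeR's quasi-likelihood test with Benjamini-Hochberg adjustment over the 11764 genes. Of the 7 members, 1 (COL16A1) was higher at an adjusted p under 0.05, against 24.6% of the genes tested, and 2 (COL17A1 and COL4A2) were lower, against 14.3%. The other 4 were not called. The calls of the 7 were unchanged with mitochondrial genes left out of the fit. The median log2 fold change was -0.31 for the members and -0.10 for all genes. The spread in this test comes from the 2 RIP repeats alone and holds no error of the single input. When the FLAG-CBFB cell input took its place, COL17A1 stayed lower, COL4A2 and COL16A1 were no longer called and COL18A1 was lower.

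**Figure D2:**
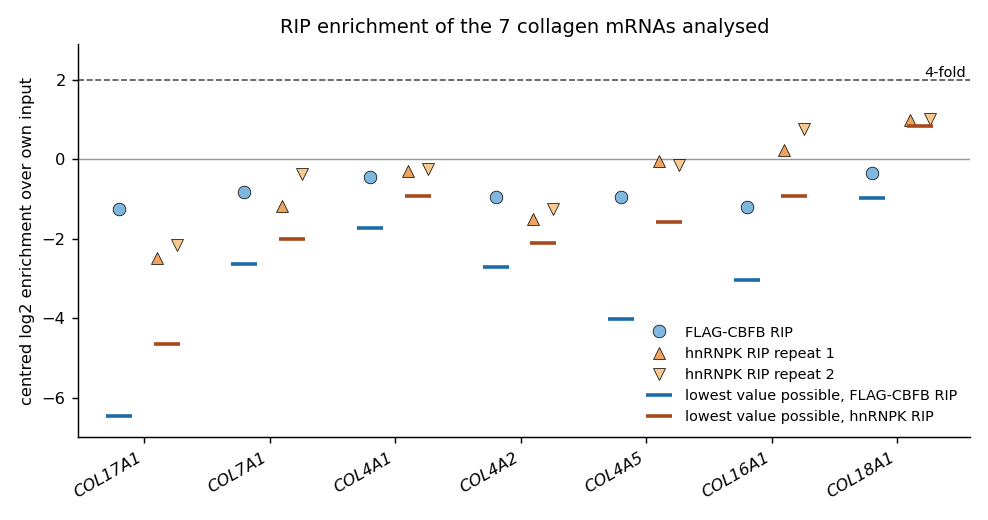
Centred log2 enrichment over the library's own input for the 7 collagen mRNAs analysed, with the FLAG-CBFB RIP as circles and the hnRNPK RIP repeats as triangles; bars mark the lowest value the scale allows for that gene (FPKM of 0 in the RIP) and the dashed line marks 4-fold. No member reaches the dashed line, all 7 circles lie below 0, and the COL18A1 triangles sit just above the lowest value possible.

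**Figure D3:**
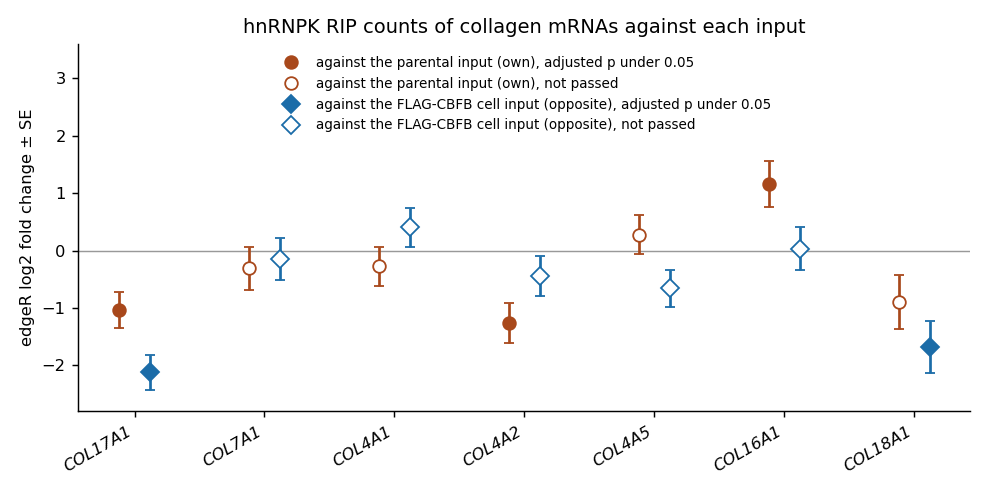
edgeR log2 fold change of hnRNPK RIP counts (2 repeats) with its standard error for the 7 collagen mRNAs, against the parental input (circles) and against the FLAG-CBFB cell input (diamonds); filled symbols passed an adjusted p of 0.05. COL17A1 is filled and below 0 with either input, while COL4A2, COL16A1 and COL18A1 are filled with only one of them.

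Of the collagens of the hemidesmosome and anchoring fibril, COL17A1 (ENSG00000065618; chr10:104031286-104085957, minus strand), which encodes the transmembrane collagen BP180, was lower in each RIP than in its input. Its FPKM was 222 in the FLAG-CBFB cell input and 36.1 after FLAG-CBFB RIP, while in the parental input it was 156 against 3.57 and 4.48 in the hnRNPK RIPs. The counts behind these values were 86919 and 8729, and 24594 against 1218 and 923. The centred log2 enrichment was -1.25 ± 0.03 (95%, counting) for CBFB, at the 1.15th percentile of the analysed genes, and -2.49 and -2.16 for hnRNPK, a mean of -2.33 ± 0.23 (SD, n = 2) at the 2.91th percentile. In edgeR's quasi-likelihood test its log2 fold change in the hnRNPK RIPs was -1.03 ± 0.32 (SE), with a Benjamini-Hochberg adjusted p = 0.016, and -2.12 against the FLAG-CBFB cell input, with an edgeR adjusted p = 1.43e-05. It was called lower under each of the 6 alternatives to the test. RSEM's mean transcript length for COL17A1 was 3830 nt in the FLAG-CBFB cell input and 2421 nt in the parental input, against 3483 and 2448 nt in the hnRNPK RIPs, and FPKM divides by it where counts do not.

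The analysed genes whose levels lay nearest to those of COL17A1 over the 5 libraries were XRCC5, SEC11A and EIF3A, at Euclidean distances of 0.46, 0.50 and 0.60 on centred log2(FPKM + 1). They were picked on the same levels from which enrichment is computed. Any likeness of their enrichment to that of COL17A1 therefore follows from the choice and is not a separate result. The centred log2 enrichment of XRCC5, SEC11A and EIF3A was -0.64, -0.57 and -1.05 in the FLAG-CBFB RIP. In the hnRNPK RIPs it was -2.47 and -2.33 for XRCC5, a DNA end-joining subunit, -2.38 and -2.22 for SEC11A, a signal peptidase subunit, and -1.79 and -2.10 for EIF3A, a translation initiation factor subunit.

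COL7A1 (ENSG00000114270; chr3:48564073-48595267, minus), which encodes the collagen of the anchoring fibrils, had 14.9 FPKM in the FLAG-CBFB cell input and 2.54 FPKM in the FLAG-CBFB RIP. In the parental input it had 24.1 FPKM, and in the hnRNPK RIPs 0.82 and 2.03 FPKM. The repeats were farther apart for COL7A1 than for any other analysed member, with centred log2 enrichments of -1.18 and -0.37 (mean -0.77 ± 0.57, SD, n = 2). That difference of 0.81 compares with an SD of 0.35 for the difference between repeats across all analysed genes. RSEM's mean length was 2818 nt in repeat 1 and 1809 nt in repeat 2, while the counts were 223 and 301. For CBFB the enrichment was -0.82 ± 0.13 (95%, counting). The edgeR log2 fold change of -0.31 ± 0.37 (SE) was not called, at an adjusted p = 0.534.

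Of the type IV chains of the basement membrane, COL4A1 (ENSG00000187498; chr13:110148963-110307233, minus) and COL4A2 (ENSG00000134871; chr13:110305812-110513209, plus) encode the alpha1 and alpha2 chains that assemble together, and lie head to head with overlapping starts on opposite strands. COL4A1 had 7.41 FPKM in the FLAG-CBFB cell input and 1.44 FPKM in the FLAG-CBFB RIP, and 10.9 FPKM in the parental input against 0.58 and 0.57 FPKM in the hnRNPK RIPs. COL4A2 had 15.7 and 2.38 FPKM in the FLAG-CBFB pair, and 25.95 FPKM in the parental input against 0.57 and 0.76 FPKM in the hnRNPK RIPs. The parental input thus held more than double the level of COL4A2 that it held of COL4A1, and in the hnRNPK RIPs the pair lay closer together. The ratio of COL4A1 to COL4A2 in FPKM was 0.473 in the FLAG-CBFB cell input, 0.605 in its RIP, 0.420 in the parental input and 1.02 and 0.75 after hnRNPK RIP.

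For COL4A1 the centred enrichment was -0.45 ± 0.11 (95%, counting) for CBFB and -0.31 and -0.24 for hnRNPK (mean -0.27 ± 0.04, SD, n = 2), at the 45.1th percentile. Its edgeR log2 fold change of -0.27 ± 0.34 (SE) was not called, at an adjusted p = 0.546. For COL4A2 the enrichment was -0.96 ± 0.08 (95%, counting) for CBFB and -1.49 and -1.26 for hnRNPK (mean -1.38 ± 0.17, SD, n = 2), at the 16.8th percentile. Its counts were 10718 before hnRNPK RIP and 355 and 423 after it, a log2 fold change of -1.25 ± 0.35 (SE) in edgeR's quasi-likelihood test, with an adjusted p = 0.0084. Against the FLAG-CBFB cell input, where COL4A2 was lower, it was -0.44, with an edgeR adjusted p = 0.34. The difference between COL4A1 and COL4A2 was not itself tested. Whether the counting used strand is not given in the sources used here, so reads from the overlap of the pair could be split between them.

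COL4A5 (ENSG00000188153; chrX:108439844-108697545, plus) encodes the alpha5 chain, which assembles with alpha6 in epithelial basement membranes, and has the highest share of proline codons of the members. It had 40.4 FPKM in the FLAG-CBFB cell input and 7.40 FPKM in its RIP, and 17.8 FPKM in the parental input against 1.99 and 1.67 FPKM in the hnRNPK RIPs. Its centred enrichment was -0.96 ± 0.06 (95%, counting) for CBFB, at the 4.67th percentile, and -0.04 and -0.13 for hnRNPK (mean -0.09 ± 0.07, SD, n = 2). With the inputs exchanged, which differ 2.27-fold for COL4A5, these became 0.21 for CBFB and a mean of -1.26 for hnRNPK, the opposite order. The edgeR log2 fold change was 0.28 ± 0.34 (SE), not called at an adjusted p = 0.547, and it was -0.65 against the FLAG-CBFB cell input. COL4A6, the partner chain transcribed from the other side of a shared promoter region and the only other type IV gene analysed, had levels of 32.5, 4.72, 18.4, 1.43 and 1.51 FPKM in the same order of libraries. Its centred enrichment was -1.21 for CBFB and -0.39 and -0.27 for hnRNPK. The ratio of COL4A5 to COL4A6 in FPKM lay between 0.964 and 1.57 over the 5 libraries.

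COL18A1 (ENSG00000182871; chr21:45405137-45513720, plus), the basement membrane collagen from which endostatin is cut, was the weakest member analysed and had the densest runs of C. Its coding sequence held 67.2 positions per kb at which CCC begins, at the 99.4th percentile of the analysed genes. It had 4.01 FPKM in the FLAG-CBFB cell input and 0.56 FPKM in its RIP, and 2.51 FPKM in the parental input against 0.15 and 0.10 FPKM in the hnRNPK RIPs. The centred hnRNPK enrichment of 1.0 and 1.01 was above that of the average gene, yet the lowest value that so weak a gene can take on this scale is 0.83. On counts, which were 770 in the parental input against 39 and 34, the log2 fold change was -0.90 ± 0.47 (SE), not called by edgeR at an adjusted p = 0.145. It was -1.68 against the FLAG-CBFB cell input, with an edgeR adjusted p = 0.0056. The measures thus differ in sign for COL18A1, and with a pseudocount of 0.1 the mean hnRNPK enrichment was -0.10. For CBFB the enrichment was -0.34 ± 0.23 (95%, counting), where the lowest value possible was -0.99. It too depended on the scale, at -1.07 with a pseudocount of 0.1 and at -1.66 and -1.61 as log2 CPM with TMM and DESeq2 factors. SLC19A1, a folate carrier gene, overlaps COL18A1 on the opposite strand and was expressed, at 17.1 FPKM in the parental input and 0.69 and 1.27 FPKM in the hnRNPK RIPs.

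COL16A1 and COL12A1 belong to the collagens with interrupted triple helices, which lie on the surface of fibrils. COL16A1 (ENSG00000084636; chr1:31652247-31704319, minus) had 19.7 FPKM in the FLAG-CBFB cell input and 2.56 FPKM in its RIP, and 10.8 FPKM in the parental input against 1.29 and 2.11 FPKM in the hnRNPK RIPs. Its centred enrichment was -1.20 ± 0.13 (95%, counting) for CBFB, at the 1.45th percentile, and 0.24 and 0.75 for hnRNPK (mean 0.50 ± 0.36, SD, n = 2), at the 67.1th percentile. With the inputs exchanged these became -0.36 for CBFB and a mean of -0.34 for hnRNPK. FPKM was lower in both hnRNPK RIPs than in the input, but by less than for the average gene. The counts were 1539 before hnRNPK RIP and 245 and 343 after it, and the log2 fold change of 1.16 ± 0.40 (SE) was called higher by edgeR at an adjusted p = 0.031. It was 0.03 against the FLAG-CBFB cell input, where COL16A1 was higher, with an edgeR adjusted p = 0.955, and it was not called without the filter on FPKM, at an edgeR adjusted p = 0.154.

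COL12A1 (ENSG00000111799; chr6:75084326-75206051, minus) had 0.30 FPKM in both the FLAG-CBFB cell input and its RIP, with 238 and 143 counts. In the parental input it had 3.74 FPKM and 2001 counts, against 0.19 and 0.37 FPKM and 89 and 125 counts in the hnRNPK RIPs. In the edgeR fit without the filter on FPKM, over 24642 genes, its log2 fold change in the hnRNPK RIPs was -1.09, with an adjusted p = 0.028. On the FPKM scale the lowest centred value it could take was 0.96 for CBFB and 0.40 for hnRNPK, so its enrichment is not read here. COL5A1 (ENSG00000130635; chr9:134641774-134844843, plus), a fibrillar chain made mainly by mesenchymal cells, was not detectable at this depth beyond the 6 counts named above, and no fold is given.

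The collagens were then set beside other proline-rich coding sequences. Of the 525 analysed genes with the highest proline shares, 25.3% passed 4-fold with CBFB and 34.9% with hnRNPK, against 3.45% and 6.95% of the 10500 genes with a coding transcript. The 525 include the 7 analysed members, of which 0 were past 4-fold with either protein. The median centred enrichment of the 525 was 0.51 for CBFB and 1.20 for hnRNPK, against -0.23 and -0.20 for the 10500. Across the 10500 genes the proline share and the enrichment had a Pearson r of 0.30 for CBFB and 0.31 for hnRNPK (Spearman rho 0.13 and 0.24). These are descriptions across genes of the same libraries, which share base composition and depth. By the density of CCC in the coding sequence, 8 of the 9 members lay above the median of 17.0 per kb, from 25.5 per kb in COL4A5 to 67.2 per kb in COL18A1, and COL12A1 lay below it at 14.5 per kb. Only COL18A1 and COL5A1 were among the highest 5%, which began at 44.7 per kb. The glycine share was 18.2 to 28.6% in the members other than COL12A1, and the 526 genes with the highest glycine shares had a median enrichment of -0.12 for CBFB and -0.42 for hnRNPK, with 5.13% and 9.13% past 4-fold. By length of the coding sequence the 9 members lay between the 94.7th and 99.3th percentile. The 525 genes with the longest had medians of -0.51 for CBFB and 0.20 for hnRNPK, with 3.62% and 8.76% past 4-fold. Whether either feature accounts for the values of the collagens was not tested.

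**Figure D4:**
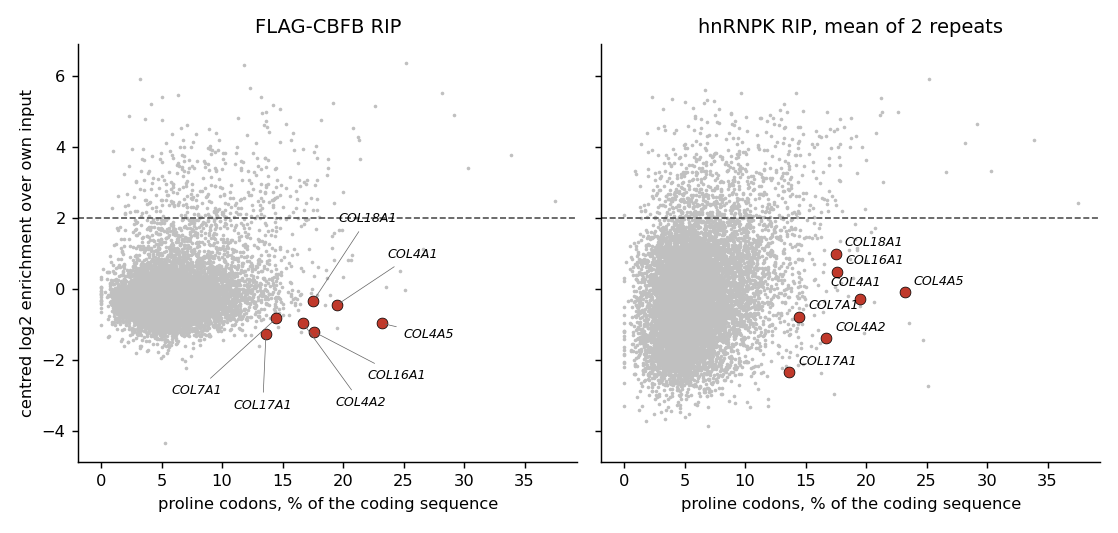
Share of proline codons in the coding sequence against centred log2 enrichment, for 10500 analysed genes (grey) and the 7 collagen genes analysed (red), with FLAG-CBFB on the left and hnRNPK on the right; the dashed line marks 4-fold. The collagens have proline shares of 13.6 to 23.2%, where many genes lie above the line, and none of them does.

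The remaining collagen genes and the genes that make, bind and degrade collagen were taken from lists of pathway members. Of 35 other collagen genes 3 were analysed, and 7 had 0 counts in all 5 libraries, among them COL1A2, COL3A1 and COL11A1. Of the 3, COL6A1 and COL27A1 were called higher in the hnRNPK RIPs by edgeR and COL4A6 was not called, where 24.6% of all genes tested were higher. Against the FLAG-CBFB cell input COL4A6 was lower (edgeR adjusted p = 0.045). COL6A1, a chain of the beaded filament collagen, had 16.0 FPKM in the FLAG-CBFB cell input and 5.43 FPKM in its RIP, and 10.3 FPKM in the parental input against 4.38 and 7.30 FPKM in the hnRNPK RIPs. Its centred enrichment was -0.06 for CBFB and 1.54 and 2.23 for hnRNPK, with an edgeR log2 fold change of 3.12 (adjusted p = 7.91e-06). COL27A1, a fibrillar chain, had a centred enrichment of -0.06 for CBFB and 1.26 and 1.70 for hnRNPK, with an edgeR log2 fold change of 2.30 (adjusted p = 0.00019).

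Of 35 genes of collagen biosynthesis and cross-linking 28 were analysed. In the hnRNPK RIPs edgeR called 4 higher (14.3% of 28) and 2 lower (7.14%), and 22 were not called, where 24.6% and 14.3% of all genes tested were. Their median centred enrichment was -0.29 for CBFB and -0.50 for hnRNPK. PCOLCE, the enhancer of procollagen C-proteinase, was enriched more than 4-fold with both proteins and was the only gene of the list so enriched with either. It had 2.99 FPKM in the FLAG-CBFB cell input and 17.7 FPKM in its RIP, and 5.21 FPKM in the parental input against 10.1 and 6.21 FPKM in the hnRNPK RIPs. Its centred enrichment was 3.57 for CBFB and 3.44 and 2.89 for hnRNPK, with an edgeR log2 fold change of 4.34 (adjusted p = 3.65e-07). LOXL2, a lysyl oxidase that cross-links collagen, followed for hnRNPK at 1.96 and 1.80 (edgeR adjusted p = 2.56e-06), and LOX, of the same family, had values of 0.61 and 0.46 and was not called. The lowest were PPIB, a prolyl isomerase that helps fold collagen, at -2.30 and -2.36 (edgeR adjusted p = 0.0090, and 0.828 against the FLAG-CBFB cell input), P4HB, the beta subunit of prolyl 4-hydroxylase, at -1.60 and -1.75, and SEC23A, a subunit of the vesicle coat that exports procollagen, at -1.53 and -1.81. Neither P4HB nor SEC23A was called against the parental input, and SEC23A was lower against the FLAG-CBFB cell input (edgeR adjusted p = 0.0031).

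Of 13 collagen receptors 9 were analysed, of which 3 were called higher in the hnRNPK RIPs by edgeR (33.3%, against 24.6% of all genes tested), 0 lower (against 14.3%) and 6 not called. Their median centred enrichment was -1.0 for CBFB, with 9 of 9 below 0 (against 64.9% of all genes), and 0.39 for hnRNPK. That hnRNPK median is the value of ITGA10, a low gene whose centred value comes out too high. ITGA10 had 4.73 FPKM in the parental input against 0.21 and 0.19 FPKM, and a count log2 fold change of -0.77, not called. All of the 9 but ITGA10 had a higher FPKM in the FLAG-CBFB cell input than in the parental input. ITGA2 had 53.64 against 11.9 FPKM and CD44 433.3 against 196.6 FPKM, while ITGA10 had 3.66 against 4.73 FPKM. Whether 9 of 9 stay below 0 for CBFB with the parental input in place of their own was not tested. SDC4, a syndecan, had 59.4 FPKM in the parental input against 54.0 and 29.8 FPKM in the hnRNPK RIPs, an enrichment of 2.47 and 1.71 (edgeR adjusted p = 1.85e-06). CD44 was at 0.96 and 0.49 (edgeR adjusted p = 1.59e-05), and ITGA1, an integrin alpha chain for type IV collagen, at 1.02 and 0.99 without passing the test. ITGA1 was low too, at 2.61 FPKM in the parental input against 0.20 and 0.12 FPKM in the hnRNPK RIPs. ITGB1, the beta chain of the collagen integrins, was lowest at -1.69 and -2.33, followed by the syndecan SDC1 at -1.02 and -1.60 and the receptor kinase DDR1 at -0.57 and -0.73, and none of these 3 was called. Against the FLAG-CBFB cell input ITGB1 and SDC1 were lower (edgeR adjusted p = 0.00013 and 0.011).

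Of 23 genes of collagen degradation and its inhibitors 9 were analysed, with 2 called higher by edgeR (22.2%, against 24.6% of all genes tested), 0 lower (against 14.3%) and 7 not called. Their median centred enrichment was -0.76 for CBFB and -0.77 for hnRNPK. Both that were higher are inhibitors of metalloproteinases. TIMP2 had 24.6 FPKM in the FLAG-CBFB cell input and 36.5 FPKM in its RIP, and 16.9 FPKM in the parental input against 32.2 and 22.9 FPKM in the hnRNPK RIPs. Its centred enrichment was 1.89 for CBFB and 3.50 and 3.09 for hnRNPK (edgeR adjusted p = 6.4e-08). TIMP3 was at 0.07 for CBFB and 2.22 and 1.68 for hnRNPK (edgeR adjusted p = 1.64e-06), whereas TIMP1, of the same family, was at -0.03 for CBFB and -1.82 and -1.75 for hnRNPK and was not called. The protease genes ADAM17, ADAM9 and CTSL had mean hnRNPK enrichments of 0.06, -1.12 and -1.65 and were not called either, though ADAM9 was lower against the FLAG-CBFB cell input (edgeR adjusted p = 0.048).

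Of 25 partners in the basement membrane and hemidesmosome 18 were analysed, of which edgeR called 2 higher (11.1%, against 24.6% of all genes tested) and 4 lower (22.2%, against 14.3%), with 12 not called. Their median centred enrichment was -0.84 for CBFB and -1.15 for hnRNPK, and 16 of 18 were below 0 in both repeats, against 50.6% of all genes. ITGA3, an integrin chain for epithelial laminin, was called higher at 0.79 and 0.66 (edgeR adjusted p = 7e-05). DST, whose epithelial form is the hemidesmosome plaque protein BP230, was called lower at -1.80 and -1.74 (edgeR adjusted p = 0.0091), as was the laminin chain gene LAMB1 at -1.71 and -1.86 (edgeR adjusted p = 0.041). LAMA3, another laminin chain gene, was at -1.98 and -1.51, the perlecan gene HSPG2 at -0.38 and -0.21, and FRAS1, of the fetal basement membrane, at 1.06 and 0.98, and these 3 were not called. FRAS1 was low, at 2.84 FPKM in the parental input against 0.31 and 0.18 FPKM in the hnRNPK RIPs. LAMA3 was lower against the FLAG-CBFB cell input (edgeR adjusted p = 0.0078).

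**Figure D5:**
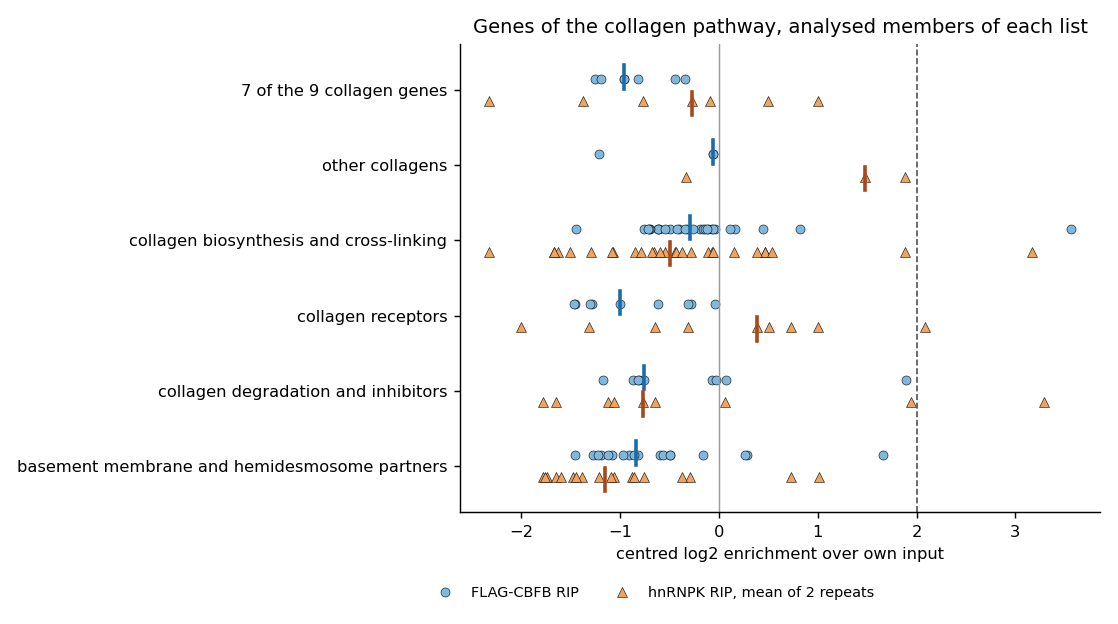
Centred log2 enrichment of each analysed gene in the collagen pathway lists, with FLAG-CBFB RIP values as circles and the mean of the 2 hnRNPK repeats as triangles; short bars are medians and the dashed line marks 4-fold. The 7 collagen genes lie between -1.25 and -0.34 for CBFB and between -2.33 and 1.0 for hnRNPK, and PCOLCE is the single circle beyond the line.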

How the data were processed

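RIP and input RNA from MCF10A cells was sequenced from TruSeq mRNA libraries, 1 FLAG-CBFB cell input, 1 FLAG-CBFB RIP, 1 parental input and 2 hnRNPK RIPs. The submitters' processing notes name Trimmomatic, STAR, RSEM and the hg19 build, without versions. The authors estimated counts of each gene with RSEM, an expected count that can be fractional, and the deposited FPKM values are the authors' normalization of them for effective length and library total. The mean transcript length of the same tables was read as well. Genes were named by Ensembl identifier. Where a symbol had several identifiers, the one with the most counts was used. Coordinates and sequences are those of GENCODE 29 on GRCh38, since the tables hold no coordinates.

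Enrichment was log2(FPKM + 1) in the RIP minus its own input, centred on the mean over the 11764 genes averaging 1 FPKM or more, with 2 (4-fold) as the threshold, after the study's cutoff. Such folds are on a log2(FPKM + 1) scale, which shrinks them toward 0 for low genes before centring. After centring, low genes that fell in a RIP therefore come out too high. COL18A1 was at 1.0 with hnRNPK, but at -0.10 with a pseudocount of 0.1 and at -0.90 on counts. The hnRNPK counts were rounded and tested with edgeR 4.0.16 (quasi-likelihood, TMM) in R 4.3.3, called at a Benjamini-Hochberg adjusted p of 0.05. DESeq2 1.42.0 served as an alternative. SE is the size of the log2 fold change over the root of its F statistic. On simulated counts for this comparison over 11764 genes, 50 of 50 genes raised by 2 on the log2 scale and 37 of 50 lowered by 2 were called, with 8 of 11564 unchanged genes called. The members and gene lists were chosen with earlier results of these data known. Named beside the members were the 3 highest and 3 lowest genes of each list by mean hnRNPK enrichment, the 3 genes nearest to COL17A1, and GAPDH and RUNX1.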

Additional observations from a re-analysis of the deposited data

Results flagged for a closer look

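For 14 analysed genes among the 9 collagens and the pathway lists, the FLAG-CBFB RIP lay on one side of 0 and both hnRNPK RIP repeats on the other. With 1 FLAG-CBFB library the difference was not tested, and the cells and the antibodies differ together. The share of all analysed genes on opposite sides is not given here, so the 14 say nothing particular to collagens. Of all analysed genes, 64.9% were below 0 with CBFB and 50.6% below 0 in both hnRNPK repeats. The FLAG-CBFB enrichment minus the mean hnRNPK enrichment was -1.69 for COL16A1 and -1.35 for COL18A1, the latter with hnRNPK values near the lowest the scale allows. With the inputs exchanged COL16A1 had -0.36 and -0.34 for the 2 proteins, on the same side. The FLAG-CBFB enrichment minus the mean hnRNPK enrichment was -1.94 for COL6A1 and -1.54 for COL27A1. Among enzymes of biosynthesis it was -0.52 for BMP1 and -0.66 for LOX, and among receptors -1.29 for ITGA1, -1.97 for ITGA2, -0.70 for ITGA10, -1.34 for CD44 and -2.13 for SDC4. These receptor differences also hold the difference between the inputs, and values with the inputs exchanged are not given. Against the FLAG-CBFB cell input the hnRNPK count log2 fold change was -0.67 instead of 1.55 for ITGA2 and 1.32 instead of 2.46 for CD44. For SDC4 it was 2.33 instead of 3.37. Among basement membrane partners it was -1.18 for FRAS1, 0.64 for CD151 and 2.42 for SPARC. SPARC had 5 counts (0.05 FPKM) in the FLAG-CBFB cell input and 29 counts (0.31 FPKM) in its RIP, against 1561 counts in the parental input. Its FLAG-CBFB value rests on those few counts, so its difference is not read here. Of the 14, 12 were lower in the FLAG-CBFB RIP and 2 higher. ITGA10, a low gene, was at 0.37 and 0.41 with hnRNPK, while its count log2 fold change was -0.77. For ITGA1 and FRAS1, also low, the count log2 fold change was 0.35 and 0.36.

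RSEM's mean transcript length, which no comparison uses directly, changed in a RIP by more than 1.5-fold, and by more than between the inputs, for 2 of the 9 collagen genes where both libraries had 100 counts or more. The share of all genes passing the same rule is not given here, so this count says nothing particular to collagens. Between the inputs alone, the lengths of COL17A1 and COL7A1 differed 1.58-fold and 1.54-fold. For COL12A1 the length was 0.49 times that of the input in hnRNPK RIP repeat 2, on 125 counts, against 0.97 between the inputs. For COL18A1 it was 0.66 times that of the input in the FLAG-CBFB RIP, on 170 counts, against 1.16 between the inputs.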

How the results depend on the processing

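Of the 7 collagen genes analysed, 0 passed 4-fold with either protein under the alternatives run. At a 2-fold threshold 1 did, COL18A1 with hnRNPK, whose value lies near the lowest the scale allows and whose count fold change is -0.90. The median FLAG-CBFB enrichment of the collagens, -0.96, was -2.30 with no centring, -0.77 centred on the median, -3.14 after scaling FPKM to equal arithmetic means, -0.83 rescaled without mitochondrial genes, -1.85 over all genes, -0.71 against the opposite input, and -1.29 and -1.25 as log2 CPM with TMM and DESeq2 factors. The median hnRNPK enrichment, -0.27, was -0.59 with a pseudocount of 0.1, -2.92 with no centring, -0.17 centred on the median, -3.49 scaled to an equal mean, -0.48 without mitochondrial genes, -2.12 over all genes, -0.34 against the opposite input and -0.48 as log2 CPM with TMM factors. It was -0.31 and -0.24 without either repeat. In the count test 0 collagens were higher without the filter on FPKM and 0 against the opposite input, and 4 were lower without that filter (COL17A1, COL4A2, COL12A1 and COL18A1), where the median of the analysed genes was -0.50 instead of -0.10. Of all genes tested, 13.51% were higher without the filter instead of 24.57%, and 7.34% were lower by DESeq2's Wald test instead of 14.26%, with COL17A1 and COL4A2 still lower and COL16A1 higher by that test. The log2 fold change of COL4A5 turned to -0.13 without the filter and -0.65 against the opposite input, and that of COL4A1 to 0.40 against the latter, none of them called. No paired analysis was possible because the RIP and input arms have only replicate number 1 in common. Leaving out a repeat in the count test leaves 1 library per arm and gives no test.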
